A study of Mus musculus with 10 samples.

Results

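The genes described here are the chemokines and chemokine receptors of the mouse, measured in 10 neuroblastomas. They were taken by gene symbol: every array probe whose gene name is that of a CC, CXC, CX3C or XC chemokine, or of a receptor of these families, was a member. This gave 71 probes of 56 genes among the 36161 gene names on the array. For each gene the probe that was brightest on average over the arrays was used. The members were 35 ligand genes and 21 receptor genes. Of these, 35 genes (23 ligands and 12 receptors) were bright enough to be tested, among 22258 genes tested in all.

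The study compared 5 tumours of mice that carried both MYCN and the F1174L mutant of ALK, a receptor tyrosine kinase (genotype ALK+/-, MYCN+/- transgenic, on a C57BL/6 x 129X1/SvJ background) with 5 tumours of mice that carried MYCN without it (MYCN+/- transgenic, 129X1/SvJ). They are called ALK/MYCN and MYCN tumours here. Both groups carried the MYCN transgene, all tumours were untreated, and the labels call the tumours biological replicates. The labels name neither the promoter that drives either transgene nor the age of the mice. Genotype and strain background cannot be told apart in this design. Tumour RNA was labelled with Cy3 and hybridised together with a Cy5-labelled reference RNA from 11 murine cell lines, so values are log2 ratios, tumour to reference. A difference between groups is the mean log2 ratio of ALK/MYCN minus that of MYCN tumours. The labelled tissue was checked by 10 neuroblastoma markers, all of which were above background. Th, the enzyme that makes the precursor of catecholamines, had a mean log2 ratio of 4.52 in ALK/MYCN and 4.29 in MYCN tumours. Its difference was 0.23 ± 0.06 (SE; limma, adjusted p = 0.014).

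Chemokines are small secreted proteins that guide the movement of leukocytes along a concentration gradient by binding to G protein-coupled receptors. The CC and CXC families are named after the spacing of their first cysteines, and many inflammatory CC ligands lie side by side in a gene cluster on mouse chromosome 11. In neuroblastoma, as in other solid tumours, ligands and receptors may come from tumour cells, from infiltrating macrophages and lymphocytes, or from endothelium and fibroblasts. In RNA of whole tumours, fewer cells of a type and less RNA per cell cannot be told apart.

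The promoters of CC ligands that passed the test below are shown first, since these genes lie in the chromosome 11 cluster and were lower together. The sequences are from RefSeq on build GRCm38.p6, which is not the mm9 build of the probe positions given later. Each is the 250 bases before the annotated start, written along the gene's own strand. They lie at chr11:83649379-83649628 (minus strand) for Ccl3, chr11:83593088-83593337 (minus strand) for Ccl6, chr11:82114935-82115184 (plus strand) for Ccl8 and chr11:83578637-83578886 (minus strand) for Ccl9. Capitals mark matches, on either strand, to motifs that are described after the sequences.
Ccl3: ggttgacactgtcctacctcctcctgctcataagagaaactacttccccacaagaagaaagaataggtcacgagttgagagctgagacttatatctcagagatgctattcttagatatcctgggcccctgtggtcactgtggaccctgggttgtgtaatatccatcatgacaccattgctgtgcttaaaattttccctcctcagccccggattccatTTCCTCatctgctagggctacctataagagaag
Ccl6: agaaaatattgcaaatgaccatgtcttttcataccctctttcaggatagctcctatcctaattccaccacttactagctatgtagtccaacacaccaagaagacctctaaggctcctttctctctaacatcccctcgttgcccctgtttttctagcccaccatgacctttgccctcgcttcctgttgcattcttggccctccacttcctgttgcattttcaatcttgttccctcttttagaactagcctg
Ccl8: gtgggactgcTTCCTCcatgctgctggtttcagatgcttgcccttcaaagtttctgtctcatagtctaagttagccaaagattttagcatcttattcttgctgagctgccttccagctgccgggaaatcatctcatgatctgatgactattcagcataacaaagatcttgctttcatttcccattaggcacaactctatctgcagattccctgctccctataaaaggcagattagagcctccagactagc
Ccl9: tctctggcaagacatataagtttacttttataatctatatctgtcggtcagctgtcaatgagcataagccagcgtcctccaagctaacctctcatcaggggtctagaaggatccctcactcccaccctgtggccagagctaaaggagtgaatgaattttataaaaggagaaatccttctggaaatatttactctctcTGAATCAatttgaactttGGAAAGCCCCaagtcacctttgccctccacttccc

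The motifs searched on both strands were the NF-kB consensus, TGANTCA (the site of AP-1), the interferon response element, GAGGAA (the core bound by PU.1, a transcription factor of myeloid cells) and CACGTG (the E-box bound by MYC proteins). Promoters were found for 41 of the 56 members. The NF-kB consensus was present in 10 of these 41 (24.4%), against 7.01% of 27025 promoters of all genes in the table. GAGGAA was present in 29.3% of the members' promoters and 23.1% of all promoters, TGANTCA in 9.76% and 6.87%, the interferon response element in 7.32% and 3.04%, and CACGTG in 4.88% and 6.05%. Among 6 promoters of genes that were lower in ALK/MYCN tumours, GAGGAA was found in those of Ccl3, Ccl8 and Cxcr3, and the NF-kB consensus and TGANTCA were found in that of Ccl9. These are matches of letters in a short window, and none of the motifs overlapped another in the sequences shown.

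Of the 35 tested genes, ALK/MYCN tumours had 8 lower and 0 higher at an adjusted p of at most 0.05 in limma, and 27 did not pass. The 8 were the CC ligands Ccl6, Ccl8, Ccl9, Ccl4 and Ccl3, the CXC ligand Cxcl16 and the receptors Ccr2 and Cxcr3. That is 22.9% of the tested members, while 12.2% of all tested genes were lower, 14.2% were higher and 26.5% passed in either direction. The differences of the members had a median of -0.51, against -0.0035 over all genes, and ran from -2.97 to 0.41. They were negative for 30 of 35 members and for 50.5% of all genes. At an unadjusted p under 0.05, limma gave 1 member higher (Cxcl11) and 18 lower, where 39% of all genes passed in either direction. The count of higher members was 1 with the scanner's processed signals (Cxcl11) and 2 with centring on spike-in spots (Cxcl11 and Ccl25).

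**Figure D1:**
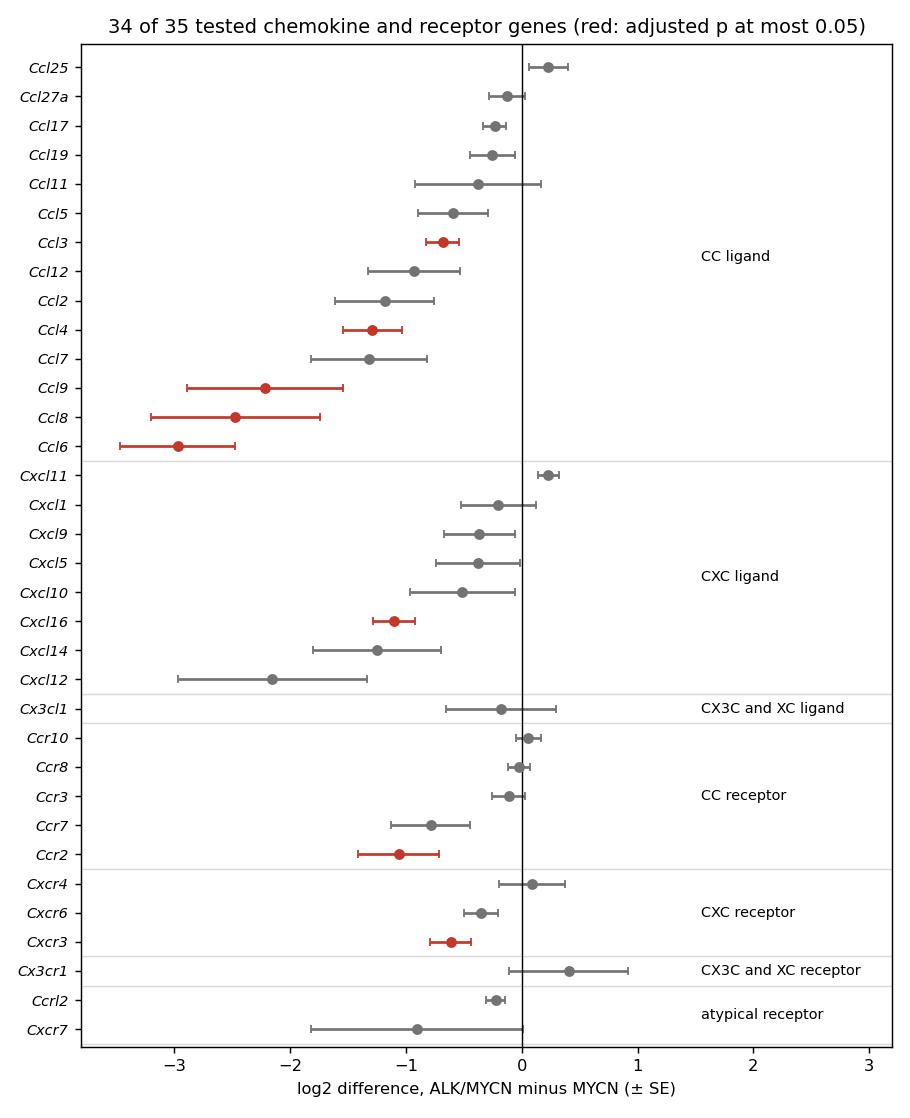
Log2 difference (ALK/MYCN minus MYCN, horizontal axis) of 34 of the 35 tested chemokine and receptor genes, grouped by role, with bars for the standard error from limma (n = 5 tumours per group). The 8 genes at an adjusted p of at most 0.05 are in red, all to the left of 0, with Ccl6 farthest at -2.97.

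All 6 ligands that passed are encoded on chromosome 11. Of 12 ligand genes on chromosome 11, 11 were tested and 6 were lower (54.5%, against 12.2% of all genes). All 11 had negative differences, as did 50.5% of all genes. Their median was -1.18, with a range of -2.97 to -0.38. Of 11 ligand genes on chromosome 5, 5 were tested and none passed, with a median of -0.37. The grouping by chromosome was not part of the planned comparisons, and the difference between the chromosomes was not tested.

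Ccl6, a CC chemokine made by macrophages and other myeloid cells in the mouse, had the lowest difference of all members. Its log2 ratio was 0.90, 2.29, 2.54, 1.78 and 1.75 in ALK/MYCN tumours 1 to 5 and 3.46, 5.59, 5.16, 5.94 and 3.97 in MYCN tumours 1 to 5. Every ALK/MYCN tumour lay below every MYCN tumour, as was so for 8.6% of all genes, while groups were apart in either direction for 19.9%. The difference was -2.97 ± 0.49 (SE, n = 5 per group), or 7.83-fold lower (limma, adjusted p = 0.00275). The probe lies at chr11:83401997-83402056 (mm9, minus strand). Within the 3 slides the difference was -1.17, -4.19 and -3.16.

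Ccl9, whose gene is next to Ccl6 and which attracts monocytes and dendritic cells through Ccr1, read -4.50, -3.91, -3.05, -3.71 and -3.52 in ALK/MYCN tumours. In MYCN tumours it read -3.59, 0.19, -1.03, -0.42 and -2.76. MYCN 1 lay among the ALK/MYCN tumours and the other MYCN tumours lay above them, so the groups overlapped. The difference was -2.22 ± 0.67 (SE), 4.64-fold lower (limma, adjusted p = 0.0352). Its probe is at chr11:83388223-83388282 (mm9, minus strand).

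Ccl8, a ligand of Ccr8 in the mouse, was similar in pattern. It read -1.21, 0.03, 0.60, -0.20 and 0.48 in ALK/MYCN and -0.17, 2.78, 2.65, 4.51 and 2.28 in MYCN tumours. MYCN 1 again lay within the range of the ALK/MYCN tumours, and the other MYCN tumours lay above it. The difference was -2.47 ± 0.73 (SE), 5.54-fold lower (limma, adjusted p = 0.0318). On slide 1, which held MYCN 1 and ALK/MYCN 2, it was 0.20, against -4.78 on slide 2 and -2.09 on slide 3. The probe is at chr11:81930108-81930167 (mm9, plus strand).

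Ccl3 and Ccl4, the macrophage inflammatory proteins, were lower with no overlap between groups. Ccl4 read -4.36, -3.94, -4.11, -4.41 and -3.82 in ALK/MYCN tumours and -2.56, -3.32, -2.14, -2.63 and -3.55 in MYCN tumours. Its probe (chr11:83478052-83478111, mm9, plus strand) was above background on 3 of 5 ALK/MYCN arrays and on all 5 MYCN arrays. The difference was -1.29 ± 0.26 (SE), 2.44-fold lower (limma, adjusted p = 0.00613). MYCN 1 was not the lowest of its group here, unlike for Ccl6, Ccl8 and Ccl9. Ccl3 read -4.24, -4.29, -4.47, -4.32 and -4.16 in ALK/MYCN and -3.50, -3.96, -3.43, -3.25 and -3.94 in MYCN tumours. The ALK/MYCN tumours lay close together and all below the MYCN tumours. The difference was smaller, -0.68 ± 0.14 (SE), 1.6-fold (limma, adjusted p = 0.00742, probe at chr11:83461358-83461417, mm9, minus strand).

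Cxcl16, a membrane-bound chemokine of macrophages and dendritic cells that also takes up oxidised lipoprotein, lies on chromosome 11 apart from the CC cluster (probe at chr11:70267780-70267839, mm9, minus strand). It read 0.20, 0.57, 0.50, 0.14 and 0.50 in ALK/MYCN and 0.82, 1.59, 1.91, 1.57 and 1.53 in MYCN tumours. The groups did not overlap, and MYCN 1 was the lowest MYCN tumour. The difference was -1.10 ± 0.18 (SE), 2.15-fold lower (limma, adjusted p = 0.00274).

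**Figure D2:**
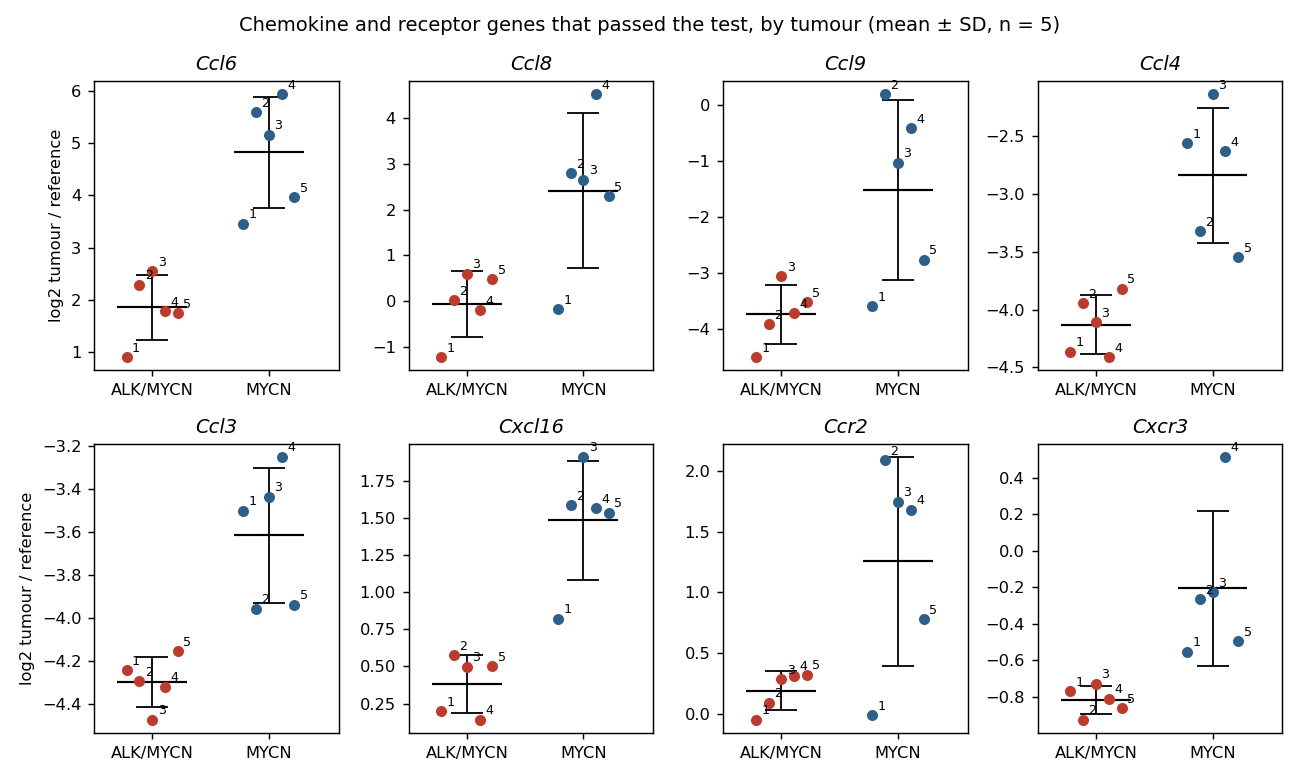
Log2 ratio of tumour over reference (vertical axis, a scale of its own for each gene) in each tumour for the 8 genes that passed, with the tumour's number beside its point, the group mean as a line and the SD as bars (n = 5 per group). The groups do not overlap for Ccl6, Ccl4, Ccl3, Cxcl16 and Cxcr3, and MYCN 1 lies within the ALK/MYCN range for Ccl8, Ccl9 and Ccr2.

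The calls for Ccl6, Ccl4, Ccl3 and Cxcl16 held when any 1 tumour was left out. Those for Ccl8, Ccl9, Ccr2 and Cxcr3 did not. The number of lower members then ran from 4 to 13. It was 4 of 35 without ALK/MYCN 1, 2, 4 or 5 or without MYCN 3. Of all genes 9.18%, 10.2%, 9.32%, 7.96% and 9.01% were lower there, in that order. Lower members numbered 5 without MYCN 2 or MYCN 4, where 10.1% and 9.91% of all genes were lower. They numbered 9 without MYCN 5, 10 without ALK/MYCN 3 and 13 without MYCN 1. There 10.6%, 11.2% and 11.7% of all genes were lower. The adjusted p over all settings tried ran from 0.00403 to 0.121 for Ccl8, from 0.00918 to 0.0766 for Ccl9, from 0.00488 to 0.146 for Ccr2 and from 0.0104 to 0.105 for Cxcr3 (limma). With slide as a block the adjusted p was 0.0525 for Ccl8, 0.0643 for Ccl9 and 0.0766 for Ccr2.

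**Figure D3:**
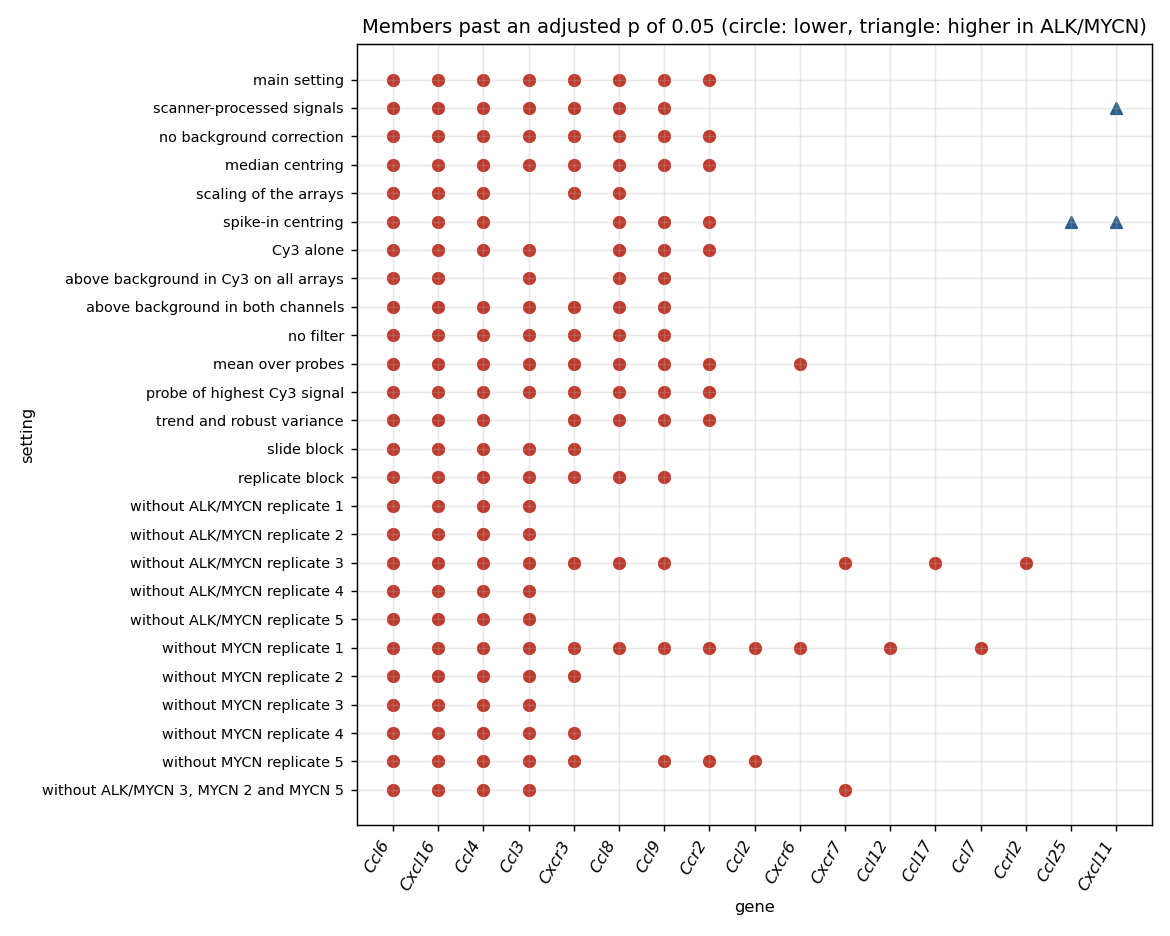
Members, 1 of them not drawn, at an adjusted p of at most 0.05 (horizontal axis, genes) under each setting (vertical axis), with circles for lower and triangles for higher in ALK/MYCN tumours. Ccl6 and Cxcl16 have a circle in every line, and Ccl3 and Ccl4 have one in each line that leaves out 1 tumour.

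The monocyte attractants Ccl2, Ccl7 and Ccl12, ligands of Ccr2 that lie in the same cluster, had differences of -1.18 ± 0.43, -1.32 ± 0.50 and -0.93 ± 0.40 (SE). None passed (limma, adjusted p = 0.066, 0.077 and 0.111). Ccl2 read -5.24, -5.24, -4.27, -4.72 and -4.42 in ALK/MYCN and -4.43, -2.24, -3.78, -3.02 and -4.52 in MYCN tumours. MYCN 1 and MYCN 5 lay among the ALK/MYCN tumours and the other MYCN tumours above them. Ccl7 read -5.16, -5.01, -4.03, -4.62 and -4.72 in ALK/MYCN and -4.74, -2.11, -3.62, -2.23 and -4.22 in MYCN tumours. It was highest in MYCN 2 and MYCN 4, and MYCN 1 and MYCN 5 lay among the ALK/MYCN tumours. Ccl12 read -1.75, -1.73, -1.38, -1.33 and -0.65 in ALK/MYCN and -1.58, 0.23, -0.67, 0.64 and -0.83 in MYCN tumours. Only MYCN 2 and MYCN 4 were above every ALK/MYCN tumour. Without MYCN 1, all 3 passed as lower, as did Cxcr6.

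The T cell attractant Ccl5 read -5.25, -5.27, -4.45, -5.13 and -5.39 in ALK/MYCN and -5.29, -4.68, -3.82, -3.85 and -4.88 in MYCN tumours. The difference, -0.59 ± 0.30 (SE), did not pass (limma, adjusted p = 0.174). Ccl5, and also Cxcl12, Cxcl14, Cxcr4, Cxcr7, Cx3cl1 and Cx3cr1 below, were picked for a full account after their values were seen.

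Among CXC ligands, Cxcl12, the stromal ligand of Cxcr4 and Cxcr7, had the lowest difference, -2.15 ± 0.82 (SE), and missed the threshold (limma, adjusted p = 0.0764). It read -6.36, -6.26, -4.36, -5.90 and -6.33 in ALK/MYCN and -4.75, -2.01, -5.28, -1.35 and -5.06 in MYCN tumours. MYCN 2 and MYCN 4 were far above the rest, and ALK/MYCN 3 stood above its own group. A probe for another transcript variant gave -2.16 and passed when all probes were tested (limma, adjusted p = 0.0247), although it was above background on only 1 of 5 ALK/MYCN arrays. Cxcl14, a chemokine of epithelium and fibroblasts, read -0.29, -0.26, -0.00449, -0.70 and 1.45 in ALK/MYCN and 0.63, 2.85, 1.93, 0.94 and 0.10 in MYCN tumours. ALK/MYCN 5 lay above MYCN 1, 4 and 5, and the other ALK/MYCN tumours lay below every MYCN tumour. The difference was -1.25 ± 0.55 (SE; limma, adjusted p = 0.12).

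The interferon-induced ligands of Cxcr3 did not pass. Cxcl9 read 0.20, 0.44, 0.21, 0.19 and 0.27 in ALK/MYCN and 0.37, 0.13, 1.77, 0.97 and -0.10 in MYCN tumours. MYCN 3 and MYCN 4 stood above the rest, and the difference was -0.37 ± 0.31 (SE). A second Cxcl9 probe gave -0.98 but was above background on 0 ALK/MYCN and 2 MYCN arrays, too few to be tested. Cxcl10 read -3.37, -2.90, -2.60, -3.99 and -2.42 in ALK/MYCN and -3.50, -2.29, -1.20, -2.33 and -3.41 in MYCN tumours. MYCN 3 was highest, MYCN 1 and MYCN 5 lay within the ALK/MYCN range, and the difference was -0.51 ± 0.45. Cxcl11 read 0.30, 0.34, 0.49, 0.76 and 0.40 in ALK/MYCN and 0.14, 0.16, 0.33, 0.32 and 0.20 in MYCN tumours. Its difference of 0.23 ± 0.09 did not pass (limma, adjusted p = 0.0931), and a second Cxcl11 probe gave 0.02. The Cxcl11 probe used was by far the brightest of the members, with a mean log2 Cy3 signal of 17.63 in ALK/MYCN and 17.43 in MYCN tumours. The next brightest, that of Ccl27a, had 12.41 and 12.52. Whether so bright a signal is that of Cxcl11 RNA was not tested. The neutrophil attractants Cxcl1 and Cxcl5 had differences of -0.20 and -0.38 and overlapped between groups.

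The remaining tested CC ligands overlapped between groups and did not pass. Their differences were -0.38 for the eosinophil attractant Ccl11, -0.25 for Ccl19 and -0.23 for Ccl17, which attract Ccr7-bearing and Ccr4-bearing lymphocytes. They were -0.13 for Ccl27a and 0.23 for Ccl25, the latter an attractant of thymocytes and gut lymphocytes. A Ccl25 probe for a non-coding variant gave -0.31, opposite in sign. One of the other Ccl27a probes gave -0.28 and passed (limma, adjusted p = 0.0327). Cx3cl1, a membrane-bound chemokine of neurons and endothelium, read -4.26, -3.52, -2.75, -4.12 and -3.51 in ALK/MYCN and -5.07, -2.95, -3.18, -3.72 and -2.34 in MYCN tumours. The MYCN tumours held both the highest and the lowest value, and the difference was -0.18 ± 0.48 (SE; limma, adjusted p = 0.813), with a sign that turned under 5 of the settings tried.

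**Figure D4:**
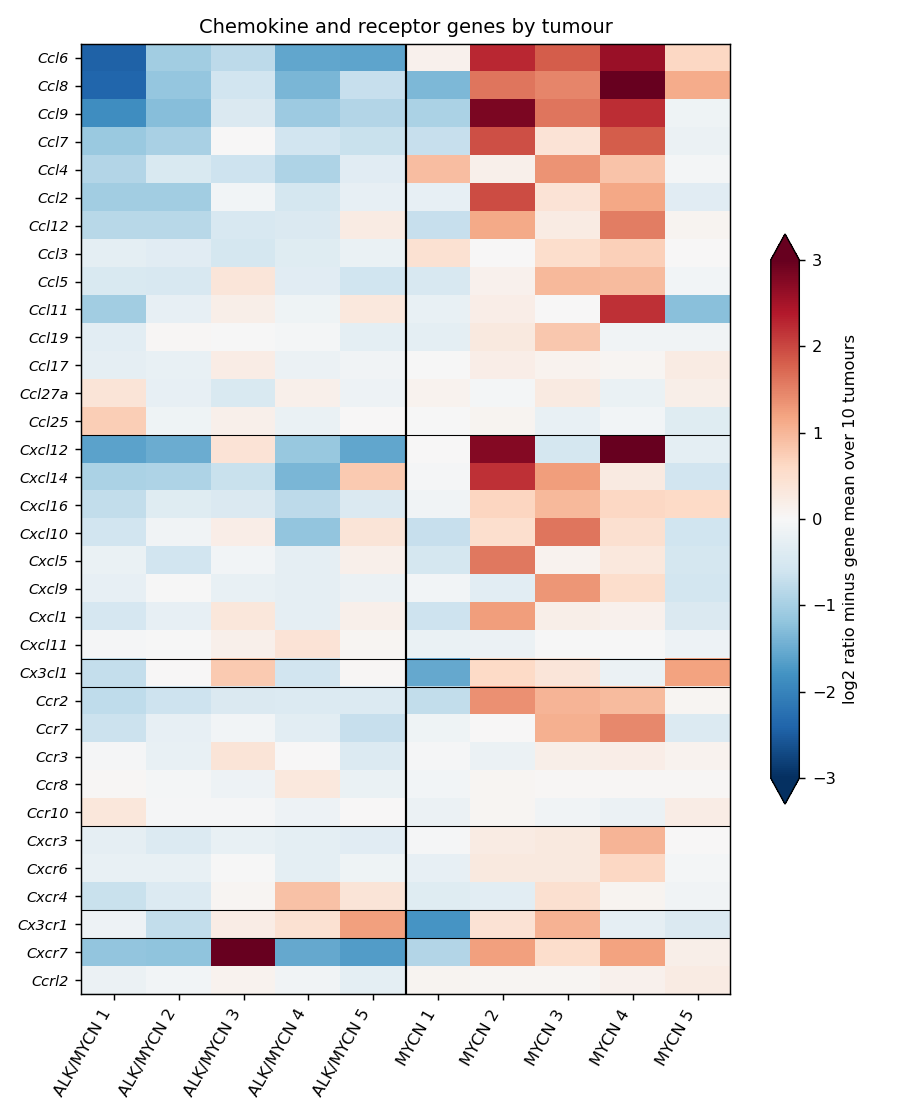
Log2 ratio of 34 of the 35 tested members (vertical axis, ordered within its role by size of difference) in each tumour (horizontal axis), minus the gene's mean over the 10 tumours. Ccl6, Ccl8 and Ccl9 are blue in the ALK/MYCN tumours and red in MYCN 2, 3 and 4, and Cxcr7 is red in ALK/MYCN 3.

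Among receptors, 2 of 12 tested were lower (16.7%, against 12.2% of all genes), a share near that of all genes. Ccr2, the receptor that draws inflammatory monocytes from the blood, read -0.05, 0.09, 0.29, 0.31 and 0.32 in ALK/MYCN and -0.00976, 2.09, 1.75, 1.68 and 0.78 in MYCN tumours. MYCN 1 lay within the ALK/MYCN range and the other MYCN tumours above it. The difference was -1.06 ± 0.35 (SE), 2.09-fold lower (limma, adjusted p = 0.0479, probe at chr9:124022948-124023007, mm9, plus strand). The probe was above background on 1 of 5 ALK/MYCN and 4 of 5 MYCN arrays, so it met the required 5 arrays mostly through MYCN tumours. The size depended on the processing: it was -2.41 with the scanner's processed signals, where it did not pass (limma, adjusted p = 0.0841). It was -1.18 with no background correction, and the cause of the larger size was not tested.

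Cxcr3, a receptor of activated T cells and NK cells, read -0.77, -0.93, -0.73, -0.81 and -0.86 in ALK/MYCN and -0.55, -0.27, -0.23, 0.52 and -0.50 in MYCN tumours. The groups did not overlap, and MYCN 4 stood highest. The difference was -0.61 ± 0.18 (SE), 1.53-fold lower (limma, adjusted p = 0.0304, probe at chrX:98926920-98926979, mm9, minus strand). The probe was above background on 2 of 5 ALK/MYCN and 4 of 5 MYCN arrays.

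Receptors that pair with the lower ligands gave these values. Ccr1, which binds Ccl3, Ccl6 and Ccl9, was above background on no array. Cxcr6, the receptor of Cxcl16, read -1.42, -1.43, -1.22, -1.50 and -1.32 in ALK/MYCN and -1.44, -0.92, -0.91, -0.58 and -1.26 in MYCN tumours. MYCN 2, 3 and 4 lay above all ALK/MYCN tumours, and the difference was -0.36 ± 0.15 (SE; limma, adjusted p = 0.101). A second Cxcr6 probe gave -0.32 and passed when all probes were tested (limma, adjusted p = 0.00793). That probe was above background on only 2 of 5 ALK/MYCN arrays and on 4 of 5 MYCN arrays. Ccr8, the receptor of Ccl8, read -1.48, -1.55, -1.66, -1.19 and -1.70 in ALK/MYCN and -1.59, -1.44, -1.47, -1.47 and -1.47 in MYCN tumours. Its probe was above background on 4 of 5 ALK/MYCN arrays but on only 1 of 5 MYCN arrays, so these values have little order. The difference was -0.03 ± 0.10 (SE), and its sign turned under 8 of the settings tried, scaling and centring among them.

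Cxcr4 and Cxcr7 both bind Cxcl12. Cxcr7, an atypical receptor that removes Cxcl12 and is now named Ackr3, read -3.09, -3.11, 1.42, -3.43 and -3.58 in ALK/MYCN and -2.79, -0.68, -1.38, -0.70 and -1.74 in MYCN tumours. ALK/MYCN 3 was the highest of all tumours and the other ALK/MYCN tumours lay below every MYCN tumour. Over all tumours the difference was -0.90 ± 0.91 (SE; limma, adjusted p = 0.498). Without ALK/MYCN 3 it was -1.85 and passed (limma, adjusted p = 0.0118; the range over all settings was 0.0118 to 0.704). The 2 tested adrenal cortex markers were also high in ALK/MYCN 3, with a mean of 5.05 above their mean over tumours. It was -0.71 to -0.31 in MYCN tumours, and the part of these markers in the Cxcr7 value was not tested. Cxcr4 read -1.65, -1.40, -0.92, -0.11 and -0.59 in ALK/MYCN and -1.35, -1.29, -0.50, -0.89 and -1.08 in MYCN tumours. The MYCN tumours lay within the range of the ALK/MYCN tumours, with a difference of 0.09 ± 0.28 (SE; limma, adjusted p = 0.849).

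Cx3cr1, the fractalkine receptor of microglia and patrolling monocytes, had the highest difference of any member, 0.41 ± 0.51 (SE), and did not pass (limma, adjusted p = 0.596). It read 2.01, 1.43, 2.40, 2.63 and 3.41 in ALK/MYCN and 0.40, 2.60, 3.21, 1.90 and 1.74 in MYCN tumours. ALK/MYCN 5 and MYCN 3 were highest and MYCN 1 lowest. A second Cx3cr1 probe gave 0.13. The other tested receptors were Ccr7 of dendritic cells and naive T cells at -0.79, the eosinophil receptor Ccr3 at -0.11, the skin-homing receptor Ccr10 at 0.06 and the atypical Ccrl2 at -0.22. None of these passed, and Ccr7 was above background on 1 of 5 ALK/MYCN and 4 of 5 MYCN arrays.

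The other 21 members were not tested. The probes used for 13 of them were above background on no array: the ligands Ccl1, Ccl20, Ccl22, Cxcl2, Cxcl3, Cxcl15, Cxcl17 and Xcl1, and the receptors Ccr1, Ccr4, Cxcr1, Xcr1 and the atypical Ccrl1, now Ackr4, of which another probe was above background on 1 MYCN array. The other 8, above background on 1 to 4 arrays, were Ccl24, Ccl26, Ccl28, Ccr6, Ccr9, Cxcl13, Cxcr2 and Cxcr5. Cxcl13, the B cell attractant of lymphoid follicles, was above background on none of the ALK/MYCN arrays and on 4 of 5 MYCN arrays. It read -0.05, 0.03, 0.57, -0.16 and -0.18 in ALK/MYCN and 0.39, 3.58, 2.68, 0.72 and 0.21 in MYCN tumours. ALK/MYCN 3 lay above MYCN 1 and MYCN 5, so the groups overlapped. The mean of the MYCN tumours was at least 2.59-fold higher, a bound that was not tested. The bound is open to dye bias because dyes were not swapped. MYCN 2 and MYCN 3 were the highest.

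The tumours of a group differed more among themselves in MYCN than in ALK/MYCN for 25 of 35 members, against 54% of all genes. MYCN 1 was the lowest MYCN tumour for 22 of 35 members, while it was lowest for 28.3% of all genes. ALK/MYCN 1 was the lowest ALK/MYCN tumour for 16 members and for 24.3% of all genes, and ALK/MYCN 3 was the highest for 16 members. For the 11 ligands of chromosome 11, the mean of the log2 ratios after each gene's own mean was subtracted was -1.19, -0.74, -0.31, -0.74 and -0.46 in ALK/MYCN tumours. It was -0.30, 1.17, 0.89, 1.64 and 0.04 in MYCN tumours. MYCN 2, 3 and 4 stood apart as high, and MYCN 1 reached only the level of ALK/MYCN 3. Slides held the groups unevenly, with 1 tumour of each group on slide 1, ALK/MYCN 1, 3 and 4 with MYCN 4 on slide 2, and ALK/MYCN 5 with MYCN 2, 3 and 5 on slide 3. Differences were negative for 22, 28 and 30 of 35 members within slides 1, 2 and 3.

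Marker lists of other cell types gave these values, beside 12.2% of all genes lower and 14.2% higher. Of 13 tested macrophage markers, 10 were lower and 0 higher, among them C1qb, a complement component of macrophages, at -1.09 ± 0.21 (SE), and Csf1r, the receptor that macrophages need to survive, at -1.35 ± 0.35. The median difference of the list was -0.92. Their mean after centring ran from -0.74 to -0.22 in ALK/MYCN and from -0.20 to 0.79 in MYCN tumours. All macrophage markers of the list were above background on at least 1 array. Of 8 endothelial markers 6 were lower, with means of -0.84 to 0.10 and 0.08 to 1.03. Of 8 fibroblast markers 1 was lower, a share near that of all genes. Their means were -1.85 to 0.08 and -1.71 to 2.40, MYCN 1 being the lowest of its group. Of 4 B cell markers 2 were lower, with means of -0.55 to -0.05 and -0.13 to 0.75. None of 7 T cell markers passed, with means of -0.17 to 0.06 and -0.18 to 0.31, and 2 of the 11 on the array were above background on no array. None of 5 neutrophil markers passed, with means of -0.60 to 0.38 and -0.51 to 1.26. None of 2 tested NK cell markers passed, and 4 of the 8 on the array were above background on no array. Of 6 dendritic cell markers 1 was higher, also near the share of all genes, with means of -0.10 to 0.26 and -0.24 to 0.39. Of the 10 neuroblastoma markers 3 were higher (Th, Ddc and Isl1) and 0 lower, with means of -0.04 to 0.09 and -0.21 to 0.065. The part of these cell types in the differences of the chemokine genes was not tested.

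**Figure D5:**
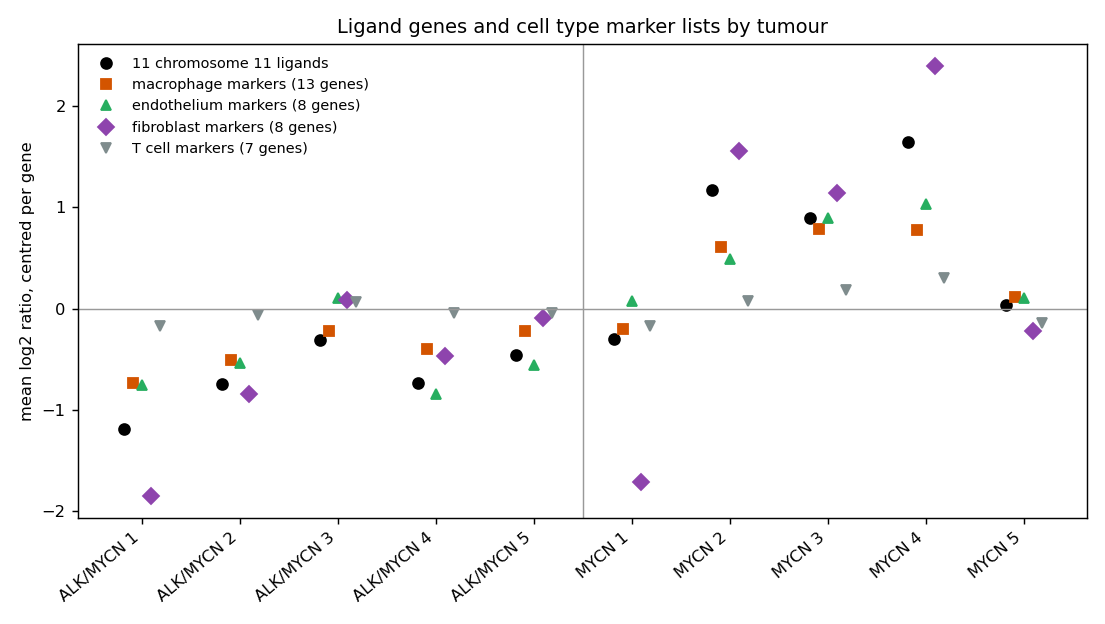
Mean log2 ratio after subtraction of each gene's mean over tumours (vertical axis) in each tumour (horizontal axis) for the 11 ligands of chromosome 11 and for 4 lists of cell type markers. The ligands run from -1.19 to -0.31 in ALK/MYCN and reach 1.64 in MYCN 4, and the 13 macrophage markers run from -0.74 to -0.22 and from -0.20 to 0.79.

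The centred mean of the skeletal muscle markers ran from -1.32 to -0.95 in ALK/MYCN and from -0.61 to 4.91 in MYCN tumours, with no overlap. It was 4.91 in MYCN 2 and 2.18 in MYCN 1. Of 6 tested, 1 was lower, against 12.2% of all genes. It was the myosin heavy chain Myh4 at -2.60 ± 0.54 (SE; limma, adjusted p = 0.00717). The part of muscle in the chemokine values was not tested. Markers of other tissues were high in single tumours. The centred mean of 2 tested markers of liver, kidney and pancreas was 1.25 in MYCN 5, where Slc34a1 read 2.84 and Ctrb1 0.18. The MYCN means of these genes were 0.61 and 0.14. For adipocyte markers the centred mean was 4.02 in MYCN 4 and 2.62 in ALK/MYCN 3. Without ALK/MYCN 3, MYCN 2 and MYCN 5, a choice made after these values were seen, 5 members were lower. Ccl3, Ccl4, Ccl6 and Cxcl16 were among them and the fifth was Cxcr7. Of all genes 6.91% were then lower, and 16.6% passed in either direction.

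The rest of the pathway was taken from lists of 56 tested genes, of which 7 were higher (12.5%, against 14.2% of all genes) and 17 lower (30.4%, against 12.2%). Among 23 genes of receptor signalling, 3 were higher (13%) and 11 lower (47.8%), with a median difference of -0.19. Gnao1, a G protein subunit abundant in neurons, rose by 1.74 ± 0.16 (SE) and Gnb2, a beta subunit, by 0.40 ± 0.07 (limma, adjusted p = 0.000299 and 0.00284). Rac2, a small GTPase of blood cells that drives their migration, fell by 1.12 ± 0.25 (limma, adjusted p = 0.00947). Gnao1 read 3.59, 3.19, 3.11, 3.80 and 3.55 in ALK/MYCN and 1.5, 1.67, 1.93, 1.38 and 2.03 in MYCN tumours, well apart. Its difference depended on the probe and was 0.91 with the mean over its probes.

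Of 10 genes of receptor desensitisation, 3 were higher (30%) and 1 was lower (10%), with a median of -0.02. The receptor kinases Adrbk2 and Adrbk1, which phosphorylate active receptors, rose by 1.44 ± 0.25 and 0.43 ± 0.08 (SE; limma, adjusted p = 0.00361 and 0.00549). Rgs14, which speeds the return of G proteins to rest, fell by 0.66 ± 0.16 (limma, adjusted p = 0.0137). Rgs14 lost its call with spike-in centring (limma, adjusted p = 0.0605) and without ALK/MYCN 3, MYCN 2 and MYCN 5 (0.0688), and all its settings ran from 0.00317 to 0.0688. For these 3 genes the groups did not overlap. Of 17 genes that induce chemokines or belong to NF-kB, 0 were higher and 5 lower (29.4%), with a median of -0.56. The receptor of bacterial lipoproteins Tlr2 fell by 0.98 ± 0.22, the cytokine Tnf by 0.44 ± 0.10 and the endotoxin receptor Tlr4 by 0.81 ± 0.22 (SE; limma, adjusted p = 0.00971, 0.0121 and 0.0217). Tnf was above background on only 5 of the 10 arrays, the fewest that the filter allowed. Neither Tnf nor Tlr4 passed when arrays were centred on the spike-ins (limma, adjusted p = 0.0985 and 0.0601). Tlr4 also missed the threshold when ALK/MYCN 1 (limma, adjusted p = 0.0502) or ALK/MYCN 5 (0.0511) was left out. Over all settings the adjusted p ran from 0.00807 to 0.0985 for Tnf and from 0.00962 to 0.0601 for Tlr4. With the scanner's processed signals the differences were larger, -1.62 for Tnf, -1.40 for Tlr4 and -1.08 for Rgs14.

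Of 3 atypical receptors outside the symbol rule, Darc, which binds many inflammatory chemokines on red cells and venules, was higher. It read 2.47, 2.44, 2.03, 2.36 and 2.66 in ALK/MYCN and 0.47, 1.99, 1.40, 1.77 and 1.72 in MYCN tumours. The groups did not overlap, although ALK/MYCN 3 and MYCN 2 nearly met. The difference was 0.92 ± 0.26 (SE; limma, adjusted p = 0.0263), and over all settings the adjusted p ran from 0.00567 to 0.208. The scavenger receptor Ccbp2 and Gpr182 gave -0.70 ± 0.37 and -0.57 ± 0.46 and did not pass. Of 3 ligands outside the rule none passed in the main setting. The cytokine Mif gave 0.20 ± 0.07, the platelet chemokine Pf4 -1.52 ± 0.83 and Cklf 0.10 ± 0.22 (limma, adjusted p = 0.079, 0.205 and 0.785). The sign of Cklf turned under 3 settings, but with the probe of highest Cy3 signal it was 0.671 and passed (limma, adjusted p = 0.031). Mif passed as higher with scanner-processed signals, spike-in centring and without MYCN 5 (limma, adjusted p = 0.0281, 0.0495 and 0.0459). Pf4 passed as lower without MYCN 1, at -2.23 (limma, adjusted p = 0.0311).

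In the tumour channel, 53.8% to 58.7% of an array's spots were well above background. Arrays correlated at 0.915 to 0.972 within ALK/MYCN, 0.867 to 0.937 within MYCN and 0.805 to 0.910 between groups. The Alk probe differed by 0.07 ± 0.20 (SE; limma, adjusted p = 0.837) and the Mycn probe by 2.85 ± 0.35 (limma, adjusted p = 0.000761) between ALK/MYCN and MYCN tumours. Whether these mouse probes read the transgenes is not stated in the labels. The number of arrays, 5 per group, limits the precision, and p-values set a group difference against the spread between these tumours. No more than 14 bases in a row were shared by the probes of any 2 members.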

How the data were processed

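Spot intensities of both channels, deposited by the authors, were read with Agilent Feature Extraction 10.7.3.1 on build mm9, per the file headers. The deposited value table matched the log2 ratio of the scanner's processed intensities, Cy3 to Cy5, within 0.000501 and was not used for tests. Its column medians were -0.186 to -0.035. Further steps by the authors: not given in the sources used here.

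Mean signals were corrected for median background with normexp (offset 50) and normalised within arrays by loess, with control spots at weight 0, in limma 3.58.1 (R 4.3.3). Ratios were turned to tumour over reference. Outlier spots (177 to 345 per array of 62976) were set to missing, and 0 were saturated. A probe had to be well above background in Cy3 on 5 or more of the 10 arrays, and the brightest probe represented a gene. Groups were compared with lmFit and eBayes, as a two-sided test, and p-values were adjusted over 22258 genes by Benjamini-Hochberg, with 0.05 as the threshold. A bound sets the bright group's mean against the lowest signal well above background. The procedure was tested on simulated data.

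The members and lists were chosen with earlier results of these data known. Values in every tumour were given for members that passed and for members whose partner passed, and from each pathway list up to 3 genes with the smallest p were named. One tested member stays in the counts but its own values are not reported here. Other names were picked after their values were seen. After each gene's group mean was subtracted, same-numbered tumours correlated at -0.091 to 0.339, so the numbers were not taken as pairs. Alternatives changed the background correction, normalisation, filter, probe choice or variance model, added a block, or left out tumours.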

Additional observations from a re-analysis of the deposited data

Results flagged for a closer look

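In 4 of 46 groups of 5 tumours, 1 tumour stood apart from the others of its group. The gap over the range was above Dixon's critical value of 0.71, which chance exceeds in about 1 in 20 groups. Cxcr7, Cxcl12 and Ccl5 were picked after their values were seen, so 4 of 46 cannot be set against that rate. ALK/MYCN 3 was 3 of these 4, with log2 ratios above its group. Cxcr7 read 1.42 there, with the other ALK/MYCN tumours at -3.58 to -3.09. Cxcl12 read -4.36, with the others at -6.36 to -5.90. Ccl5 read -4.45, with the others at -5.39 to -5.13. Ccr8 was low in MYCN 1, at -1.59 against -1.47 to -1.44, but its probe was above background on only 1 of 5 MYCN arrays.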

How the results depend on the processing

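Ccl6 and Cxcl16 kept their direction and their side of the threshold under all 25 settings tried, and Ccl4 under the 24 that gave it a value. Ccl3 lost its call under 3, scaling of the arrays (limma, adjusted p = 0.0554), spike-in centring (0.0533) and a trended, robust variance (0.0707). With 1 tumour left out, lower members numbered 4 to 13 and higher members 0. All genes then numbered 2358 to 2949 higher and 1771 to 2597 lower, and pathway genes 5 to 9 higher and 11 to 19 lower. Lower members numbered 5 with slide as a block and with Cy3 above background on all arrays (20 members tested). They also numbered 5 without ALK/MYCN 3, MYCN 2 and MYCN 5, a set chosen after seeing the data that left 1538 genes lower. The shares of all genes lower were 8.45%, 13.3% and 6.91%, in the same order. With slide as a block 11 pathway genes were lower. Median centring left 1349 genes lower. With spike-in centring the median over all genes was 0.23, with 8560 higher and 813 lower genes, 2 higher members, and 11 higher and 7 lower pathway genes. Scanner-processed signals gave 1 higher member. The cause was not tested, save that fewer genes or tumours entered where stated.

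The replicate number as a block gave 7 lower members, with Ccr2 lost (limma, adjusted p = 0.0511). Of all genes 9.42% were then lower, and 20.7% were called in either direction. After each gene's group mean was subtracted, only ALK/MYCN 1 correlated best with its own number.

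Some differences that had not passed changed sign. Ccr8 was 0.238 with scanner-processed signals, 0.0761 with median centring, 0.0651 with scaling, 0.213 with spike-in centring, 0.0879 with Cy3 alone, 0.00996 without ALK/MYCN 3, 0.0191 without ALK/MYCN 5 and 0.0323 without the 3 tumours (-0.108 to 0.0191 with 1 tumour left out). Cx3cl1 was 0.0614 with scaling, 0.103 with spike-in centring, 0.134 with the slide block, 0.0974 without MYCN 5 and 0.136 without the 3 (-0.585 to 0.0974). Cklf was -0.013 with the slide block, -0.106 without ALK/MYCN 3 and -0.231 without the 3 (-0.106 to 0.206). Cxcr4 was -0.118 without ALK/MYCN 4 and -0.0241 without the 3 (-0.118 to 0.266).

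Signal over background limits the 15 tested members not above background on every array. With scanner-processed signals Ccl4 was -2.41 and Cxcr3 -1.94, and the cause of the larger size was not tested.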
